A study of Homo sapiens with 6 samples.

Results

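EGR1, EGR2, EGR3 and EGR4 encode the zinc finger transcription factors of the early growth response family, and NAB1 and NAB2 encode the corepressors that bind them. These 6 genes, chosen by name with results of the same comparison already known, were described among the 60671 gene identifiers of the series, and all 6 were among the 17649 genes that passed a filter on low counts. Transcripts were measured by bulk RNA sequencing in EndoC-βH1 cells, an immortalized human β cell line of wild-type genotype, with 3 samples treated with the vehicle DMSO and 3 treated with 1 µM AZD7762, an inhibitor of the checkpoint kinases CHEK1 and CHEK2. Cells of both groups spent 1 h in 0.5 mM glucose without further stimulus and a further 1 h in either 0.5 or 20 mM glucose, with the compound or vehicle present in both steps. The stimulation glucose of each library, and which of the 2 library kits made it, were not given in the sources used here. The study's methods describe its in vitro replicates in general as independent, while the labels of these samples do not say whether they came from separate cultures, so the p-values below measure the spread between these samples.

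EGR1 is a classical immediate early gene: its transcript appears within minutes of growth factor signalling, membrane depolarization or calcium entry, and in β cells it is induced by glucose. The kinase ERK acts on ternary complex factors such as ELK1, which bind the EGR1 promoter together with the serum response factor SRF at CArG boxes, while CREB acts through cAMP response elements. The EGR proteins share a DNA-binding domain that reads the GC-rich site GCGNGGGCG. NAB1 and NAB2 bind an inhibitory domain of EGR1, EGR2 and EGR3, which EGR4 lacks, and NAB2 is itself known as an EGR target, which closes a negative feedback loop.

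The libraries held between 20486391 and 29402440 counts on genes, so that a floor of 3 counts lay at 0.102 to 0.146 CPM depending on the library (CPM are counts brought to the same library size), a limit that covers counting error only. Mitochondrial genes took 1.57% of the counts in DMSO replicate 1 and between 2.12% and 2.63% in the other libraries. All 13 β cell markers examined passed the filter, among them INS at 1260 ± 351 CPM and PDX1 at 351 ± 6.76 CPM with DMSO (SD, n = 3). Of 11 markers of other cells, 10 were matched to an identifier. Trypsinogen PRSS1 was at 0 counts in every library, whereas the somatostatin gene SST stood at 215 ± 12.4 CPM in the DMSO samples and 254 ± 11.5 CPM in the AZD7762 samples. The sum of these 10 markers ranged from 242 to 268 CPM in DMSO samples and from 290 to 313 CPM in AZD7762 samples, without overlap. Most of this sum was SST, whose groups also did not overlap. Every AZD7762 sample lay above every DMSO sample for 6.79% of all genes tested. Of the 10 markers, 6 passed the filter, with 0 past the threshold described below and 2 at an unadjusted p under 0.05 in edgeR's test. The part of this sum in the results below was not tested. In bulk samples, fewer expressing cells and less RNA per cell cannot be told apart.

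The promoters of the family are shown here so that the letters known to bind SRF, CREB and the EGR proteins themselves can be set beside the values of each gene. RefSeq promoter entries (250 bases before to 50 bases after a transcription start, GRCh38.p14) were matched for 5 of the 6 genes, with 9 entries in all, and the entry at the start of the canonical transcript was used. Capitals mark CArG boxes, the TGACG core of the cAMP response element, and GCGNGGGCG, each searched on both strands. The EGR1 sequence is chr5:138465229-138465528 on the plus strand, EGR2 is chr10:62816317-62816616 on the minus strand, EGR4 is chr2:73293499-73293798 on the minus strand and NAB2 is chr12:57088864-57089163 on the plus strand.
EGR1: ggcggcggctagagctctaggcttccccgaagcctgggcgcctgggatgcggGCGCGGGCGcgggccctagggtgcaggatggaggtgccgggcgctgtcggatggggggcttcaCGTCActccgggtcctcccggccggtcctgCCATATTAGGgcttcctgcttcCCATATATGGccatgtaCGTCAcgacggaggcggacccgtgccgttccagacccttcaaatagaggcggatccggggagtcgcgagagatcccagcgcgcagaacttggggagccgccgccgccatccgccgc
EGR2: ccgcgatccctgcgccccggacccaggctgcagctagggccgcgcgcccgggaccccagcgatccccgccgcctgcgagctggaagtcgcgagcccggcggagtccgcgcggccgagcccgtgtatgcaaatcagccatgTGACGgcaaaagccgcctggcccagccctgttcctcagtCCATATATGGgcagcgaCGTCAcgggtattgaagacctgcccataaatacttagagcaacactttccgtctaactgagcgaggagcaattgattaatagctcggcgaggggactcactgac
EGR4: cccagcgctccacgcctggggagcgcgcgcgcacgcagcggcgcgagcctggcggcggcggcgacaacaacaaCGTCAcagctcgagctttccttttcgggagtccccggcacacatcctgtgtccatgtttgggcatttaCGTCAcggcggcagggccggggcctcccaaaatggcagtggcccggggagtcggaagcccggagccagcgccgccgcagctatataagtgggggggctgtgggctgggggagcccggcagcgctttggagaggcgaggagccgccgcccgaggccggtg
NAB2: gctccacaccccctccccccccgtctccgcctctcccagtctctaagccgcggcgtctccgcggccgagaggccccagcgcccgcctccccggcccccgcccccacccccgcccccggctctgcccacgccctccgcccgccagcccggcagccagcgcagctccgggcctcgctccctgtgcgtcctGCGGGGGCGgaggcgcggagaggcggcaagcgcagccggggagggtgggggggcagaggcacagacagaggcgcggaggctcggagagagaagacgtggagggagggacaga

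The EGR1 window held 2 CArG boxes, from -105 to -96 and from -83 to -74 relative to the start, and a TGACG core on either side of the pair, at -135 to -131 and -66 to -62. It also held GCGNGGGCG from -198 to -190. EGR2 held 1 CArG box, from -71 to -62, which also lay between cores, at -110 to -106 and -54 to -50. The cores of EGR1 both lay on the minus strand, while in EGR2 the first lay on the plus strand and the other on the minus strand. The CArG box letters of EGR2 and of the second box of EGR1 were identical. EGR4 held 2 TGACG cores and no CArG box. NAB2 held neither of these letters but 1 GCGNGGGCG, from -62 to -54, and NAB1, whose sequence is not shown, held 4 copies of GCGNGGGCG, 2 of them overlapping, and 1 TGACG core. Over all 35116 promoters in the table, 1.29% held a CArG box, 0.0313% held 2 or more, 24.6% held TGACG, 0.273% held a CArG box together with TGACG, and 9.43% held GCGNGGGCG. The full palindromic element TGACGTCA, found in 1.85% of promoters, was absent from the windows of these 5 genes. So were the letters CCGGAA, 1 form of the ETS site, found in 17.2% of promoters. The shorter ETS letters GGAA were not searched, so other ETS sites can still lie in these windows. A match of letters is a description of the window, not a measured binding site.

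**Figure D1:**
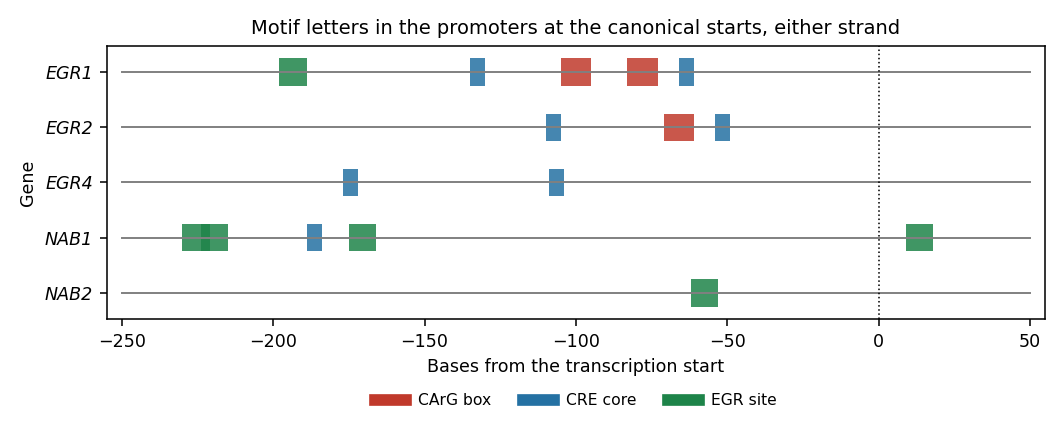
Positions of CArG boxes, TGACG cores (CRE core) and GCGNGGGCG letters (EGR site) in the promoter of each gene, in bases from the transcription start; each line is 1 promoter and each block 1 match on either strand. CArG boxes appear in EGR1 and EGR2, in each case between TGACG cores, and the NAB1 and NAB2 promoters hold GCGNGGGCG without a CArG box.

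The question addressed was how the EGR factors and their corepressors were expressed in β cells exposed to AZD7762 during a glucose-stimulated insulin secretion experiment. EGR1 transcripts were about 2.06-fold as abundant with AZD7762 as with DMSO, the other EGR genes had fitted folds between 1.52 and 1.76, and NAB1 and NAB2 had folds of 0.919 and 0.907. In a fit across all genes with edgeR's quasi-likelihood test and Benjamini-Hochberg adjustment, 125 genes (0.708% of those tested) were past an adjusted p of 0.05, 63 higher (0.357%) and 62 lower (0.351%) with AZD7762, or 59 higher and 90 lower when libraries were scaled by their totals alone. Before adjustment 1708 genes, or 9.68% of those tested, had a p under 0.05, against which the counts at this level in the lists below are to be read. EGR1 was the 1 gene of the 6 past the adjusted threshold. Because the genes were chosen with this comparison in view, this count and the folds below are descriptions and carry no test.

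EGR1 (ENSG00000120738), the founding member of the family, lies on chromosome 5 of GRCh37 from 137801168 to 137804992, and no other annotated exon overlaps it. In the DMSO samples it had 53.7, 38.0 and 33.4 normalized CPM in replicates 1, 2 and 3. In the AZD7762 samples it had 88.8, 91.0 and 78.6 CPM. Every AZD7762 sample lay above every DMSO sample, a separation in this direction that 6.79% of all genes tested showed. The means were 41.7 ± 10.6 and 86.1 ± 6.65 CPM (SD, n = 3 in each group), and the log2 fold change was 1.04 with a standard error of 0.135. Of the genes tested, 0.340% had a larger log2 fold change in either direction.

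EGR2 (ENSG00000122877), also called KROX20 and best known for its role in myelination by Schwann cells and in hindbrain patterning, lies on chromosome 10 of GRCh37 from 64571756 to 64578927. It had 2.61, 1.43 and 1.44 CPM in DMSO replicates 1, 2 and 3, and 3.06, 3.94 and 2.86 CPM in the AZD7762 replicates. The groups did not overlap, but DMSO replicate 1 came close to AZD7762 replicate 3, on between 30 and 83 counts per library. The exact Poisson 95% intervals of these neighbouring samples, from 2.06 to 3.26 CPM and from 2.19 to 3.67 CPM, overlapped. The log2 fold change was 0.81 with a standard error of 0.233, from 1.83 ± 0.676 to 3.29 ± 0.576 CPM. Of the exon length of EGR2, 3.91% is shared with an unnamed gene on the same strand.

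EGR3 (ENSG00000179388), a regulator of muscle spindle development and of lymphocyte activation, lies on chromosome 8 of GRCh37 from 22545172 to 22550993. Its DMSO replicates 1, 2 and 3 had 7.31, 3.38 and 3.93 CPM, and its AZD7762 replicates had 6.40, 9.84 and 6.85 CPM. DMSO replicate 1 lay above AZD7762 replicates 1 and 3, so the groups overlapped. The log2 fold change was 0.63 with a standard error of 0.250. EGR4 (ENSG00000135625), the member without the NAB-binding domain, lies on chromosome 2 of GRCh37 from 73518057 to 73520829. It had 2.61, 1.32 and 3.45 CPM in DMSO samples and 3.02, 4.56 and 3.47 CPM in AZD7762 samples. Here it was DMSO replicate 3 that lay within the range of the AZD7762 samples. The log2 fold change of EGR4 was 0.60 with a standard error of 0.270.

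NAB1 (ENSG00000138386), on chromosome 2 of GRCh37 from 191511472 to 191557492, was the steadiest of the 6 genes. It had 65.7, 66.8 and 65.1 CPM in the DMSO replicates and 57.5, 64.0 and 60.3 CPM in the AZD7762 replicates. All AZD7762 samples lay below all DMSO samples, as for 8.25% of all genes tested, and the log2 fold change was -0.12 with a standard error of 0.0614. NAB2 (ENSG00000166886), on chromosome 12 of GRCh37 from 57482826 to 57489259, had 30.3, 21.1 and 27.4 CPM in DMSO samples and 21.7, 25.1 and 24.7 CPM in AZD7762 samples. Its groups overlapped, with the highest and the lowest sample both among the DMSO samples, and the log2 fold change was -0.14 with a standard error of 0.118. Exons of NAB2 and STAT6 overlap on opposite strands over 2.41% of the exon length of NAB2, and for NAB1 12.3% overlaps unnamed genes on the opposite strand. Whether the counting used strand is not given, so reads of these overlaps could be assigned to either gene.

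**Figure D2:**
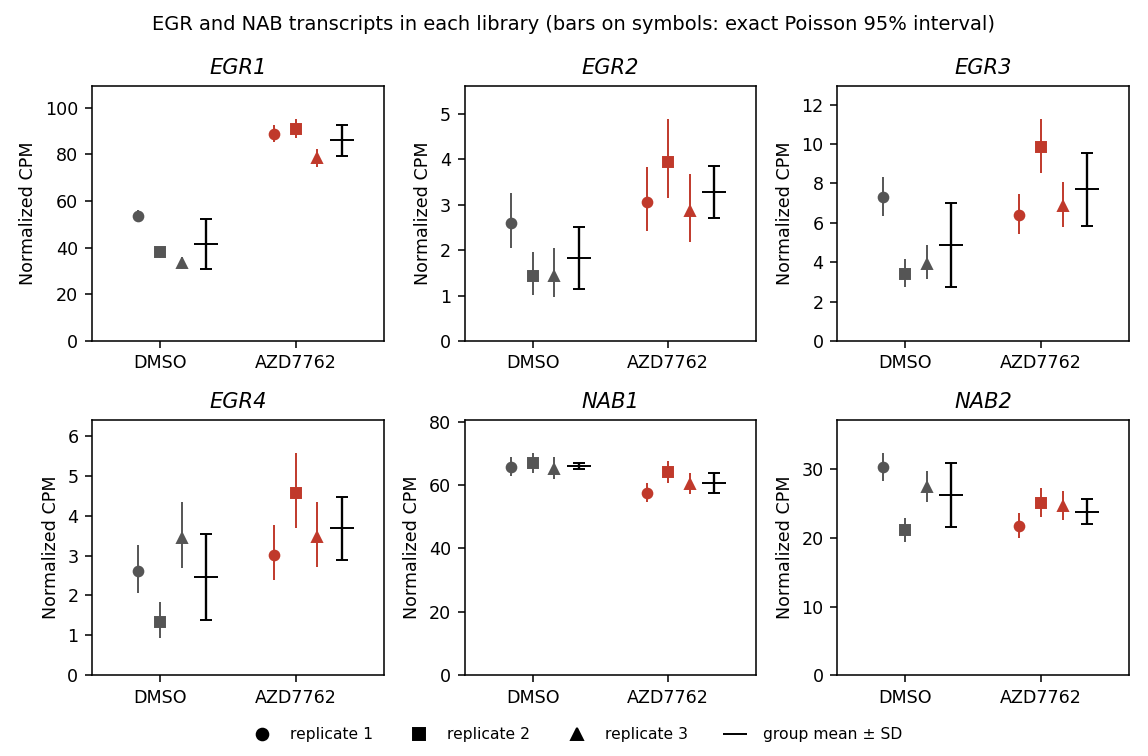
Normalized CPM of each gene in each library, on linear axes that start at 0; symbols are replicates with exact Poisson 95% intervals, which cover counting error only, and the black marks are group means ± SD (n = 3). EGR1 lies between 33.4 and 53.7 CPM in DMSO samples and between 78.6 and 91.0 CPM with AZD7762, whereas the groups overlap for EGR3, EGR4 and NAB2.

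Within the DMSO group the EGR genes had coefficients of variation above the median gene, and within the AZD7762 group EGR2, EGR3 and EGR4 did but EGR1 did not. With DMSO the coefficient of variation was 25.5% for EGR1 and up to 43.6% for the other EGR genes, the value of EGR3, against a median of 7.33% over all genes tested. With AZD7762 it was 7.72%, 17.5%, 24.3% and 21.5% for the same genes, against a median of 7.90%. NAB1 stood at 1.31% with DMSO and 5.36% with AZD7762, and NAB2 at 17.9% and 7.68%. The variation was shared in part: DMSO replicate 1 was the highest DMSO sample for EGR1, EGR2, EGR3 and NAB2, and AZD7762 replicate 2 was the highest sample of all for EGR1, EGR2, EGR3 and EGR4. For EGR3 the spread went beyond counting error, with Poisson 95% intervals from 6.37 to 8.36 CPM in DMSO replicate 1 and from 2.73 to 4.15 CPM in DMSO replicate 2.

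**Figure D3:**
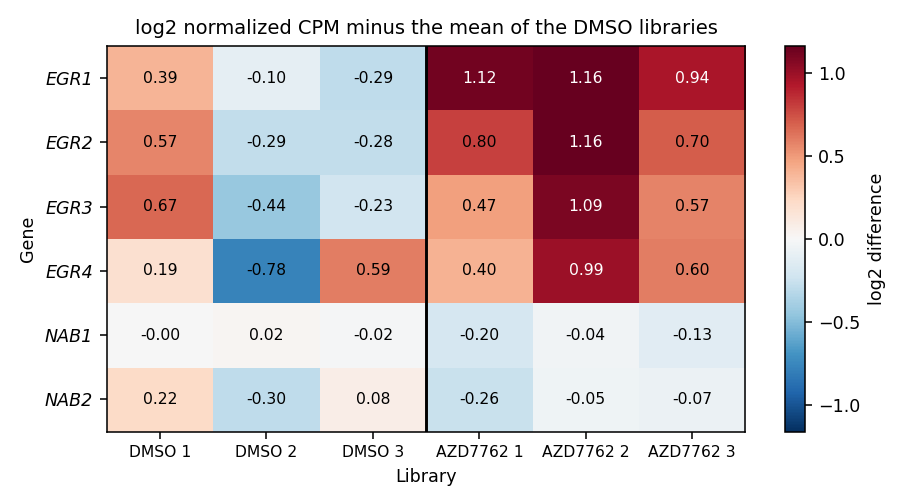
Log2 normalized CPM of each gene (rows) in each library (columns) minus that gene's mean over the DMSO libraries, with red above and blue below. DMSO replicate 1 lies above the DMSO mean for EGR1 (0.39), EGR2 (0.57) and EGR3 (0.67), and AZD7762 replicate 2 holds the highest value in each EGR row.

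The fit was repeated with each of the 6 samples left out in turn. Without DMSO replicate 1, the highest DMSO sample for EGR1, EGR2 and EGR3, whose removal lowers the DMSO mean of these genes, the log2 fold changes were 1.26, 1.19 and 1.07, and these 3 genes were past the threshold. Without any other single sample the count remained 1, EGR1. With no filter on low counts EGR1 to EGR4 were past the threshold, and with edgeR's likelihood ratio test EGR1 and EGR2 were. The fit without a filter gave far smaller adjusted p at nearly the same fold, and the cause was not tested. For SRF it was 2.72e-37 against 0.00233 with the filter, both in edgeR's quasi-likelihood test. EGR1 was past the threshold in all 17 alternative fits, with log2 fold changes between 0.91, when DMSO replicate 3 was left out, and 1.26. For EGR4 the lowest value, 0.29, came without DMSO replicate 2, which held its lowest level. NAB1 and NAB2 were below 0 in every fit, between -0.17 and -0.09 and between -0.29 and -0.03.

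**Figure D4:**
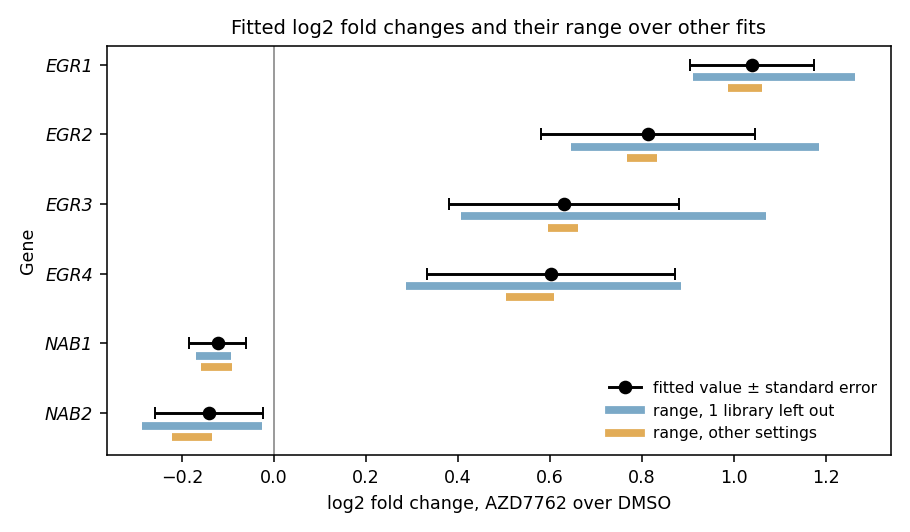
Fitted log2 fold change of AZD7762 over DMSO for each gene (black, ± standard error), with the range when 1 library at a time is left out (blue, 6 fits) and under the other settings (orange, 11 fits). EGR1 stays between 0.91 and 1.26, while leaving out a library moves EGR3 between 0.41 and 1.07 and EGR4 between 0.29 and 0.89.

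Levels of different genes were compared per kilobase of annotated exon. With DMSO, NAB1 stood at 13.5 ± 0.176 normalized CPM per kb and EGR1 at 13.3 ± 3.39, which did not differ beyond their spread, followed by NAB2 at 9.18 ± 1.64 (SD, n = 3). The lowest EGR1 sample, at 10.63, and the highest NAB2 sample, at 10.59, were nearly level. The other EGR genes were far lower. EGR4 stood at 1.04 ± 0.451, EGR3 at 0.969 ± 0.423 and EGR2 at 0.493 ± 0.182 CPM per kb, and the first of these did not differ from EGR3 beyond the spread. Over all genes tested the median was 3.84 CPM per kb. With DMSO, 78.7% of genes lay below EGR1 and 15.1% below EGR2. With AZD7762, EGR1 stood first at 27.5 ± 2.12, followed by NAB1 at 12.4 ± 0.665 and NAB2 at 8.34 ± 0.640 CPM per kb, and the order of the other EGR genes was as with DMSO.

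EGR1 made up most of the EGR transcripts in both groups. Per exon length it held 84.2 ± 4.01% of the summed level of the EGR genes with DMSO and 87.4 ± 1.96% with AZD7762, which lies within the spread of the samples. The summed EGR level was 20.4, 13.7 and 13.3 CPM per kb in the DMSO replicates and 31.7, 33.95 and 28.6 CPM per kb in the AZD7762 replicates. The summed NAB level was 24.0, 21.1 and 22.9 with DMSO and 19.4, 21.9 and 21.0 with AZD7762. The ratio of EGR to NAB transcripts was therefore below 1 in every DMSO sample, at 0.847, 0.653 and 0.579, and above 1 in every AZD7762 sample, at 1.64, 1.55 and 1.37. EGR1 stood at 1.46 ± 0.3001 times the level of NAB2 with DMSO and 3.31 ± 0.413 times with AZD7762. The share of NAB2 in the NAB sum was 40.3 ± 4.69% and 40.2 ± 0.973%.

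**Figure D5:**
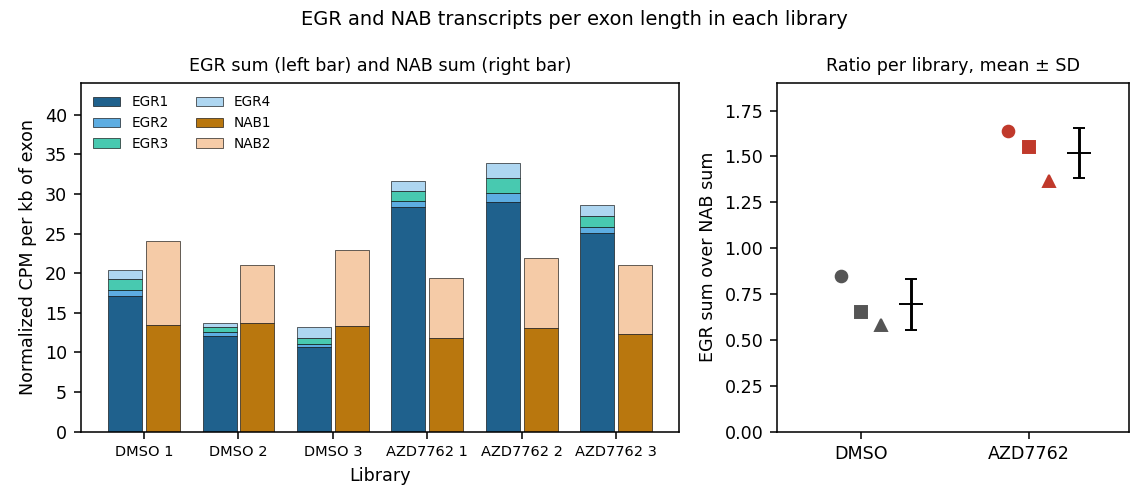
Left, normalized CPM per kb of exon in each library, with the EGR genes stacked in the left bar and the NAB genes in the right bar; right, the ratio of the sums per library with group means ± SD (n = 3). The NAB bar is the taller one in the DMSO libraries (ratios 0.579 to 0.847) and the EGR bar in the AZD7762 libraries (1.37 to 1.64).

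The EGR genes also shared a compact structure. Each of the EGR canonical transcripts has 2 exons, which 2.32% of the 13623 coding genes tested fall below, against 7 exons for NAB2, 10 for NAB1 and a median of 9. The genes span 3825 bases for EGR1, 7172 for EGR2, 5822 for EGR3 and 2773 for EGR4, against 6434 for NAB2, 46021 for NAB1 and a median of 34925. The GC content of the longest transcript was 66.1% for EGR4 and 60.9% for NAB2, above that of 97.7% and 88.3% of these genes, and 41.3% for NAB1. After removal of the trends of each library with GC content and length, the log2 fold changes were 0.99 for EGR1 and -0.22 for NAB2. The AU-rich pentamer ATTTA, a letter pattern of many short-lived transcripts, occurred 1, 2, 3 and 0 times in the 3' untranslated regions of EGR1, EGR2, EGR3 and EGR4, 10 times in that of NAB1 and 3 times in that of NAB2, against a median of 2.

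The genes known to act upstream of the family were examined as lists. These lists and those below were drawn up with earlier results of these data known. Counts and adjusted p-values of listed genes are therefore descriptions, and the alternative fits reuse the same 6 samples. Of 10 transcription factors and coactivators of the SRF and CREB branches, 1 was past the threshold, SRF itself, and the median log2 fold change of the list was 0.06 against 0.01 over all genes tested. SRF stood at 55.6, 41.6 and 65.1 CPM in the DMSO samples and at 91.7, 118 and 112 CPM in the AZD7762 samples. It rose from 54.1 ± 11.9 to 107 ± 13.8 CPM (SD, n = 3), by 0.99 ± 0.135 on the log2 scale (fit ± standard error), with an adjusted p of 0.00233 in edgeR's quasi-likelihood test. All 3 AZD7762 samples were higher than every DMSO sample, and SRF remained past the threshold in all 17 alternative fits. The largest differences that did not pass were -0.22 for the ternary complex factor ELK3 and 0.18 for the SRF coactivator MRTFA (adjusted p = 0.840 and 0.477 in edgeR's test).

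No member of the MAP kinase cascade was past the threshold. All 15 kinases of this list were tested, 2 had an unadjusted p under 0.05 in edgeR's test, and their log2 fold changes lay between -0.14 and 0.19 with a median of 0.04. MAP2K2 (0.19) and MAPK3 (0.15), which encode MEK2 and ERK1, had the largest. Of 9 genes of calcineurin, its inhibitor RCAN1 and the NFAT factors, which act on EGR2 and EGR3 in lymphocytes, 7 were tested and 0 passed, with 1 at an unadjusted p under 0.05. The largest log2 differences were those of NFATC4, at -0.30, and the catalytic subunit gene PPP3CA, at 0.07. Of the factors that bind similar GC-rich DNA, SP2 had a value of 0.06 and SP3 one of -0.05, 4 of 5 were tested, and 0 were past the threshold or under an unadjusted p of 0.05. SP2 changed sign without DMSO replicate 2, and SP3 once trends with GC content and length were removed.

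Downstream, 36 textbook targets of EGR factors in several tissues were listed, and 27 passed the filter. Of these, 2 rose, 0 fell and 25 were not past the threshold, with 9 at an unadjusted p under 0.05 in edgeR's test (9.68% of all genes tested were), and the median log2 fold change was 0.08. The log2 fold change was above 0 for 17 of the 27. All AZD7762 samples lay above all DMSO samples for 7 of the 27 and below them for 5, against 6.79% and 8.25% of all genes tested. Those 5 lower genes were all among the 9 at an unadjusted p under 0.05 in edgeR's test. ARC, a cytoskeletal protein gene of neurons that is also an immediate early gene, stood at 12.1, 9.53 and 13.7 CPM in the DMSO samples and at 30.2, 30.4 and 31.7 CPM in the AZD7762 samples. ARC rose by 1.39 ± 0.1105 on the log2 scale, with an adjusted p of 2.05e-05 in edgeR's quasi-likelihood test. GADD45B, a stress sensor, went from 1.29, 1.99 and 2.44 to 6.12, 5.56 and 7.32 CPM, or by 1.76 ± 0.198 on the log2 scale (adjusted p = 0.000463 in the same test). For both genes the 3 AZD7762 samples lay above all DMSO samples, and each stayed past the threshold in all 17 alternative fits. The synapsin gene SYN2, at only 0.533 CPM with DMSO and 0.403 CPM with AZD7762, had a log2 difference of -0.45 with a standard error of 0.357. It did not pass. PDX1, the β cell transcription factor, stood at 351 ± 6.76 CPM in DMSO samples and 374 ± 8.43 CPM in AZD7762 samples (adjusted p = 0.632 in edgeR's test). Of the 13 β cell markers, 1 rose, MAFA, an activator of the insulin gene, by 1.24 on the log2 scale (adjusted p = 0.000133 in edgeR's test).

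NAB2 represses in part through the nucleosome remodelling complex NuRD. All 13 genes of its subunits were tested, 0 were past the threshold, 1 had an unadjusted p under 0.05 in edgeR's test and the median log2 fold change was 0.02. That 1 gene was GATAD2B, at 111 ± 3.99 CPM in DMSO samples against 90.2 ± 7.73 CPM in AZD7762 samples, or -0.30 on the log2 scale (adjusted p = 0.0904 in edgeR's quasi-likelihood test). It was past the threshold in 7 of the 17 alternative fits, with adjusted p down to 0.00341 without a filter on low counts. That fit also gave a far smaller adjusted p for SRF, as described above. MBD3, the methyl-binding domain subunit, had the largest positive value, 0.21.

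Genes outside the family were ranked by how closely their profile over the 6 samples followed that of a member. The measure was the root mean square difference of log2 CPM, each gene taken relative to its own DMSO mean, among 15350 genes, and a small value says only that the profiles lie close together in these samples. Nearest to EGR1 were HADHAP1 (0.207), SYT4 (0.219), SGK1 (0.221), TOB1 (0.221) and HES1 (0.246). SYT4, a synaptotagmin gene, averaged 146 CPM in DMSO samples against 281 CPM in AZD7762 samples. Nearest to EGR2 were HADHAP1 (0.188), RPS27P4 (0.257) and GEM (0.259), of which the first 2 are pseudogenes whose reads can be shared with near-identical copies. Nearest to NAB2 were CDH9 (0.0513), ACTRT2 (0.0557) and FAM86EP (0.0673), all with less than 4 CPM.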

How the data were processed

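RNA-seq was analysed in 6 samples of EndoC-βH1 cells, 3 with DMSO and 3 with AZD7762, grouped by their deposited titles. The authors checked reads with FastQC 0.10.1, trimmed them with cutadapt 1.18, aligned them to GRCh37 and counted them with HTSeq-count; the aligner and the strand setting are not given in the sources used here. The deposited values are raw counts per gene, not scaled or filtered.

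The test used edgeR 4.0.16 under R 4.3.3, with filterByExpr, TMM factors (between 0.983 and 1.02), a quasi-likelihood fit on treatment alone and Benjamini-Hochberg adjustment over 17649 genes. Each standard error was taken from the fold change and its F statistic (fold over root F). Symbols, lengths and positions came from GENCODE v44lift37, another release than the authors' own, and 58646 of 60671 identifiers matched. The procedure was tested on simulated data. Alternatives used other scaling, filters and tests (DESeq2 1.42.0), the replicate number as a term, GC content and length trends, thinning to 20486391 counts, and samples left out in turn.

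The genes and lists were chosen with earlier results of these data known, and the motif searches after seeing the values. Named were the 6 genes, every listed gene past the threshold, the 2 largest other differences of each list, and the genes nearest in profile (mean CPM of at least 1, prior count 0.5). PDX1, INS and markers were named as checks. One listed gene is not reported here.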

Additional observations from a re-analysis of the deposited data

How the results depend on the processing

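Against 125 genes past the threshold, there were 330 when low counts were kept, 267 by edgeR's likelihood ratio test and 245 after removal of trends with GC content and length, and the cause was not tested. With single samples left out the number lay between 77 (AZD7762 replicate 1) and 168 (DMSO replicate 3). Of the EGR and NAB genes, 4 were past it without a filter, 2 with the likelihood ratio test, 3 without DMSO replicate 1 and 1 in the 14 other fits, so that leaving out a sample gave from 1 to 3. With the replicate block, 378 genes were past it, and 486 when those trends were also removed, with EGR1 the 1 gene of the family in each. The deviations of samples with the same number had correlations of 0.0469, 0.114 and 0.194. For samples with different numbers the correlations ran from -0.233 to 0.160, the last being DMSO replicate 1 with AZD7762 replicate 2. The labels do not say whether samples of the same number share a culture or batch, and this was not tested. SP3 had a log2 fold change of 0.00496 after that removal and 0.00465 with the block added, and SP2 lay between -0.00691 (DMSO replicate 2 left out) and 0.17 (DMSO replicate 3 left out). The folds of EGR2, EGR3 and EGR4 rest on 30 to 216 counts per library.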

Other observations

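Among 12051 genes tested that have a RefSeq promoter entry, 47 were past the threshold and higher with AZD7762 (0.39%) and 50 lower (0.415%), with a median log2 fold change of 0.01. Of the 184 with a CArG box in a promoter, 4 were higher (2.17%) and 0 lower, with a median of 0.03. These 4 were also the ones past the threshold among the 56 genes that hold a CArG box and a TGACG core in the same promoter, as EGR1 and EGR2 do. They were EGR1, SRF, the calponin gene CNN2 (log2 fold change 1.71) and the antisense RNA gene DIP2C-AS1 (1.52, adjusted p = 5.68e-05 in edgeR's test). Reads of DIP2C-AS1 cannot be told apart from those of an overlapping gene on the opposite strand if the counting ignored strand. CNN2 stood at 0.314 CPM with DMSO and 1.07 CPM with AZD7762. With its DMSO samples alone CNN2 would not have passed the filter on low counts. It was tested only because of its level with AZD7762, so its place among the 4 is a description. EGR1 and SRF were the 2 past the threshold of the 6 tested genes with 2 or more CArG boxes in the same promoter, and the other 4 (AGPAT1, CUL4B, ING4 and ZNF548) had log2 fold changes from -0.04 to 0.23. Of the 2298 genes with GCGNGGGCG in a promoter, 10 were higher (0.435%) and 18 lower (0.783%), with a median of 0.01. EGR1 was chosen with this comparison in view, and CNN2 was tested only through its level with AZD7762. The shares of the CArG box sets therefore count genes already selected as high with AZD7762. All these sets were formed after the values had been seen, no test was made of them, and their shares are descriptions.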
